A study of Mus musculus with 6 samples.

Results

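The lysosome is the acidic organelle in which cells break down proteins, glycans, lipids and glycogen. Its soluble acid hydrolases are tagged with mannose 6-phosphate and delivered through endosomes, and its limiting membrane carries heavily glycosylated proteins, transporters and channels. Many of these genes are targets of TFEB and TFE3, factors of the MiT/TFE family that bind E-box-like elements in lysosomal promoters and enter the nucleus when mTORC1 signalling at the lysosome is low. MITF, the master factor of the pigment cell lineage, belongs to the same family, and the melanosome of pigment cells is a lysosome-related organelle. The genes described here are 42 genes of the lysosome, chosen by symbol and found in the deposited table by NCBI Gene identifier. They comprise 31 hydrolases, 3 soluble cofactors, 6 membrane proteins and 2 transcription factors. All 42 were in the table of 16315 genes, and all 42 reached the mean level of 0.5 FPKM required for testing, as did 10615 genes in all. FPKM divide the fragments of a gene by its length and by the size of the library, so levels of different genes can be set side by side.

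The cells were B16F10, a pigmented melanoma line that the labels assign to the C57BL/6 strain. In 1 arm they received SAS, a compound the labels give only by this abbreviation, at a labelled 500 μm for 24 h, and in the other arm 0.05% DMSO as vehicle. Each arm holds 3 libraries. The title of the study speaks of xCT inhibition, xCT being the light chain of the cystine-glutamate antiporter. The headers of the table name SAS columns 24 h and vehicle columns 0 h, although the protocol gives 24 h for both, so a day of culture and the compound cannot be told apart if 0 h means cells taken before incubation. Fragment depth is unknown, since the files give FPKM alone. The sums of FPKM per library lay between 590238 and 617275. Melanocyte markers were abundant, with summed levels of 8786 to 10705 FPKM over 8 of 8 genes in SAS and 7446 to 8398 FPKM in vehicle. Of these 8 markers, 6 rose and 0 fell (limma, adjusted over all genes), where 18.9% of all genes tested rose and 18.5% fell. Mlana and Tyrp1 did not pass, with log2 fold changes of -0.09 and 0.21 (limma adjusted p = 0.391 and 0.0804). The median log2 fold change of the 8 was 0.34, and the part of these markers in the results below was not tested. Summed fibroblast and endothelial markers stayed at or below 0.96 and 0.05 FPKM in SAS libraries, and at or below 1.41 and 0.05 FPKM in vehicle libraries. The fibroblast marker Col1a2 fell, with 0.37, 0.43 and 0.39 FPKM in SAS libraries, against 0.66, 0.82 and 0.76 FPKM in vehicle libraries (limma adjusted p = 0.00252). It reached the 0.5 FPKM required for testing only through its vehicle libraries.

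Most of these lysosomal genes had more mRNA in SAS-treated cells. With limma and Benjamini-Hochberg adjustment over all genes tested, 24 of the 42 (57.1%) rose, 1 (2.38%) fell and 17 did not pass. The 24 include Ctsf, which reached the 0.5 FPKM required for testing only through its SAS libraries. Of all genes tested, 18.9% rose and 18.5% fell. The median log2 fold change of the 42 was 0.26, against -0.01 for all genes tested, and 38 of the 42 values were above 0. The shifts were moderate, from a log2 fold change of -0.25 for Gusb to 1.005 for Neu1. Fold changes here are on the scale of log2(FPKM + 1), which understates those of genes with low levels. In 24 of the 42 genes every SAS library lay above every vehicle library, as in 24.5% of all genes tested, and in 1 every SAS library lay below, as in 24.9% of all genes. Neu1 ranked 44 and Ctsd 74 among the 10615 genes when ordered from the highest log2 fold change.

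**Figure D1:**
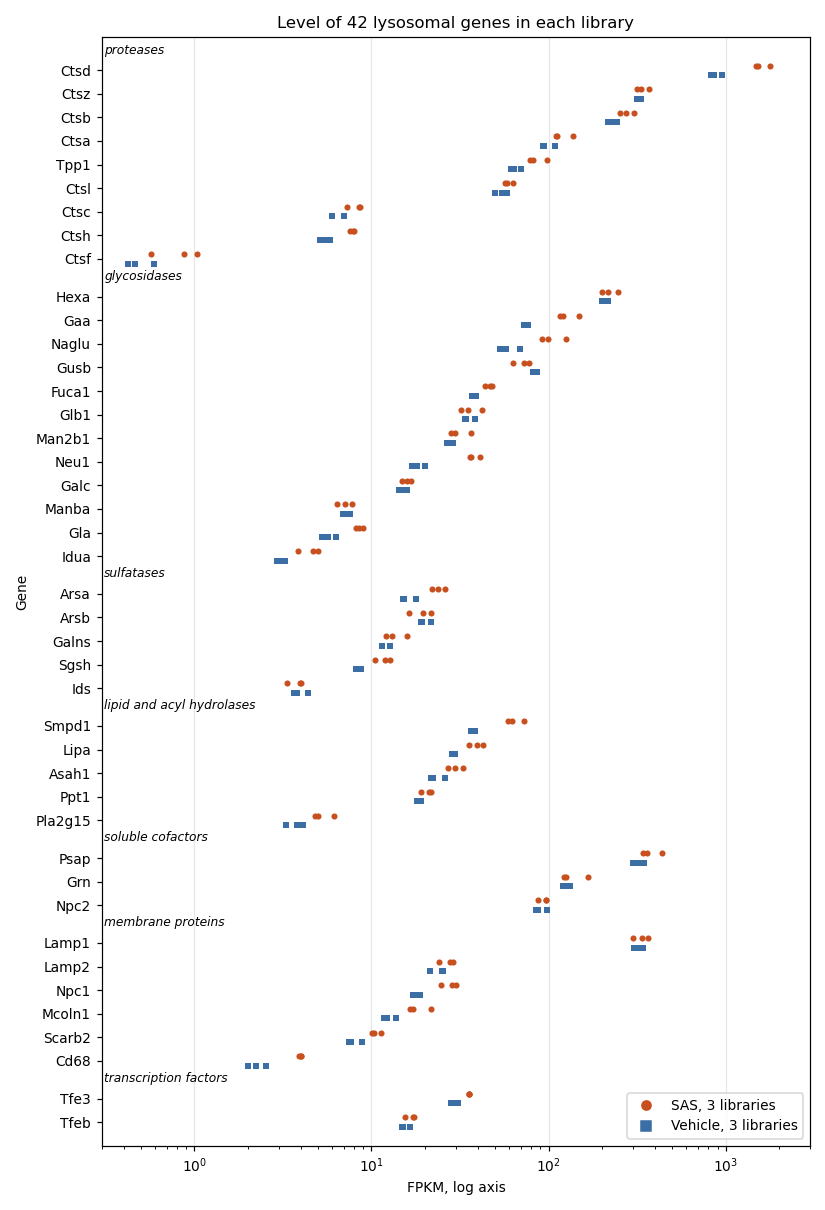
Level of each of the 42 genes (FPKM, log axis) in each library, grouped by role and ordered by mean level within a role. Circles are the 3 SAS libraries and squares the 3 vehicle libraries. Ctsd, at 1478 to 1791 FPKM in SAS and 826 to 953 FPKM in vehicle, is the most abundant gene, and Ctsf, at 0.57 to 1.03 FPKM in SAS and 0.42 to 0.59 FPKM in vehicle, the least.

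Most proteases rose. Of 9, 7 rose, none fell, and Ctsl and Ctsz did not pass. The 7 include Ctsf, which could be tested only through its SAS libraries. Their median log2 fold change was 0.28. Cathepsin D (Ctsd, NCBI Gene 13033), the main aspartic protease of the lysosome, had 1478, 1532 and 1791 FPKM in SAS libraries, against 861, 826 and 953 FPKM in vehicle libraries (log2 fold change 0.86 with SE 0.08, limma adjusted p = 2.81e-05). The groups did not overlap, and the mean was 1.82-fold that of vehicle. This single gene made up 35.0 to 35.5% of the summed FPKM of all 42 genes in SAS and 25.0 to 26.6% in vehicle. Cathepsin H (Ctsh), mainly an aminopeptidase, had 7.99, 7.59 and 7.85 FPKM in SAS libraries, against 5.39, 5.12 and 5.82 FPKM in vehicle libraries (log2 fold change 0.45 with SE 0.07, limma adjusted p = 0.000563). Tripeptidyl peptidase 1 (Tpp1), whose loss causes a form of neuronal ceroid lipofuscinosis in humans, had 78.2, 81.9 and 97.5 FPKM in SAS libraries, against 61.4, 69.5 and 63.5 FPKM in vehicle libraries (log2 fold change 0.40 with SE 0.08, limma adjusted p = 0.00325). Both were clear of the vehicle range in all 3 SAS libraries.

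Other proteases rose less firmly. Cathepsin F (Ctsf), a cysteine protease, had 0.87, 0.57 and 1.03 FPKM in SAS libraries, against 0.42, 0.46 and 0.59 FPKM in vehicle libraries (log2 fold change 0.28 with SE 0.09, limma adjusted p = 0.0316), and 1 SAS library fell within the vehicle range. Cathepsin A (Ctsa), a carboxypeptidase that also shields sialidase and β-galactosidase in a complex, had log2 fold change 0.28 (limma adjusted p = 0.0292). The cysteine protease Ctsb had 0.26 (adjusted p = 0.0159), and the dipeptidyl peptidase Ctsc 0.25 (adjusted p = 0.0389). Ctsf averaged 0.49 FPKM in vehicle, so it reached the 0.5 FPKM required for testing only through its SAS libraries. Each of the 4 calls for Ctsf, Ctsa, Ctsb and Ctsc depended on single libraries. Without SAS replicate 3, the log2 fold changes were 0.175 for Ctsa, 0.193 for Ctsb, 0.217 for Ctsc and 0.203 for Ctsf (limma adjusted p = 0.0953, 0.0589, 0.119 and 0.115). Without Vehicle replicate 1 the adjusted p of these 4 genes were 0.103, 0.0729, 0.058 and 0.102, and without Vehicle replicate 2 they were 0.104, 0.0535, 0.0567 and 0.087. Ctsc also missed the threshold when SAS replicate 2 (limma adjusted p = 0.115) or Vehicle replicate 3 (adjusted p = 0.128) was left out, and Ctsf when SAS replicate 1 was (adjusted p = 0.0774). Ctsl, an endopeptidase, averaged 59.4 ± 3.25 FPKM in SAS and 54.1 ± 3.99 FPKM in vehicle, and Ctsz, a carboxypeptidase, stood at 338 ± 26.4 FPKM in SAS and 321 ± 9.64 FPKM in vehicle (SD, n = 3 each). Their groups overlapped, and Ctsl passed with array weights (log2 fold change 0.199, limma adjusted p = 0.0248).

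The glycosidases were divided. Of 12 enzymes that strip sugars from glycoproteins, glycolipids, glycosaminoglycans or glycogen, 6 rose, 1 fell and 5 did not pass. Sialidase 1 (Neu1, NCBI Gene 18010), which removes terminal sialic acids, had 36.2, 36.7 and 41.1 FPKM in SAS libraries, against 17, 18.1 and 20.2 FPKM in vehicle libraries (log2 fold change 1.005 with SE 0.07, limma adjusted p = 5.37e-06). Its lowest SAS value was well above its highest vehicle value, and the mean was 2.06-fold that of vehicle. Naglu, an N-acetylglucosaminidase of heparan sulfate breakdown, had 99, 92 and 125 FPKM in SAS libraries, against 57.4, 53 and 68.7 FPKM in vehicle libraries (log2 fold change 0.81 with SE 0.11, limma adjusted p = 0.000327). Acid α-glucosidase (Gaa), which degrades glycogen and is deficient in Pompe disease, had 116, 121 and 148 FPKM in SAS libraries, against 72.9, 75 and 77 FPKM in vehicle libraries (log2 fold change 0.76 with SE 0.08, limma adjusted p = 6.19e-05). α-Galactosidase A (Gla), deficient in Fabry disease, had 8.53, 8.17 and 8.91 FPKM in SAS libraries, against 5.7, 5.27 and 6.31 FPKM in vehicle libraries (log2 fold change 0.50 with SE 0.07, limma adjusted p = 0.000531). None of these 4 overlapped between groups. The iduronidase Idua and the fucosidase Fuca1 also rose, by log2 fold changes of 0.43 and 0.27 (limma adjusted p = 0.00292 and 0.00356).

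β-Glucuronidase (Gusb) was the gene of the 42 that fell, with 63.1, 72.6 and 77.7 FPKM in SAS libraries, against 84.7, 82 and 86.5 FPKM in vehicle libraries (log2 fold change -0.25 with SE 0.07, limma adjusted p = 0.0196). All 3 SAS libraries were below the vehicle range. The call was lost without Vehicle replicate 1 (log2 fold change -0.245, limma adjusted p = 0.0577) or Vehicle replicate 3 (-0.23, adjusted p = 0.0539). Leaving out SAS replicate 1 gave a log2 fold change of -0.165, which still passed. With no filter on low values the adjusted p was 0.0579. The most abundant glycosidase, Hexa, encodes the α subunit of β-hexosaminidase and had 199, 216 and 245 FPKM in SAS libraries, against 201, 201 and 215 FPKM in vehicle libraries (limma adjusted p = 0.34). Those groups overlapped, as did those of Glb1 (β-galactosidase), Galc (galactosylceramidase) and the mannosidase genes Manba and Man2b1. Their log2 fold changes were 0.03, 0.05, -0.03 and 0.18. Man2b1 passed without SAS replicate 1 (0.25, limma adjusted p = 0.0388).

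**Figure D2:**
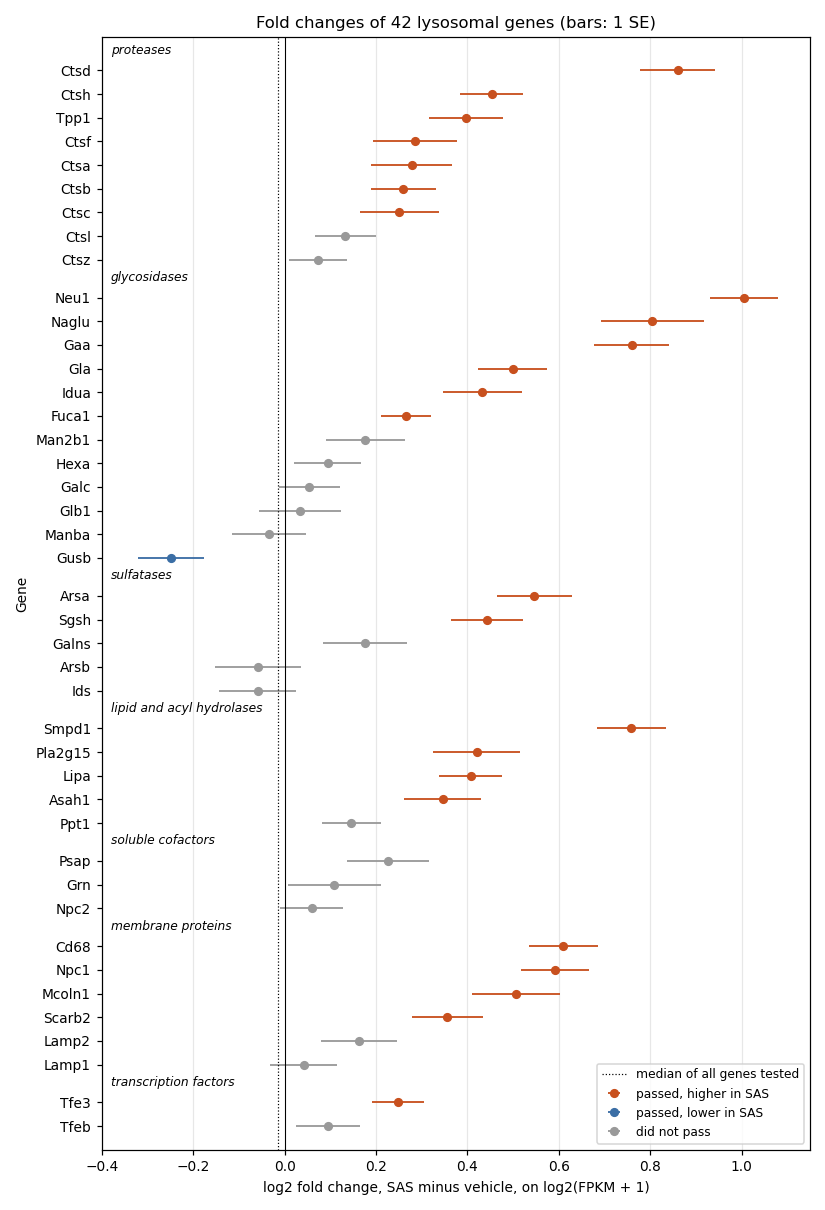
Log2 fold change of each of the 42 genes, SAS minus vehicle, on log2(FPKM + 1), with bars of 1 SE, grouped by role. The 24 genes that rose span all roles but the soluble cofactors, and the 1 gene that fell is the glycosidase Gusb. The dotted line is the median of all genes tested, -0.01.

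Sulfatases remove sulfate groups from glycosaminoglycans and sulfolipids. Of 5, 2 rose and 3 did not pass. Arylsulfatase A (Arsa), which acts on sulfatide and is deficient in metachromatic leukodystrophy, had 21.9, 23.7 and 26.1 FPKM in SAS libraries, against 15.1, 15.2 and 17.8 FPKM in vehicle libraries (log2 fold change 0.55 with SE 0.08, limma adjusted p = 0.000495). Sulfamidase (Sgsh), of heparan sulfate breakdown, had 10.5, 11.9 and 12.8 FPKM in SAS libraries, against 8.13, 8.13 and 8.74 FPKM in vehicle libraries (log2 fold change 0.44 with SE 0.08, limma adjusted p = 0.00131). Both genes had all SAS libraries above all vehicle libraries. Arsb, of dermatan sulfate breakdown, averaged 19.2 ± 2.78 FPKM in SAS and 19.9 ± 1.41 FPKM in vehicle (SD, n = 3 each). Ids stood at 3.75 ± 0.371 FPKM in SAS and 3.94 ± 0.371 FPKM in vehicle, while Galns stood at 13.6 ± 1.99 FPKM in SAS and 11.9 ± 0.74 FPKM in vehicle. All 3 genes had overlapping groups. Galns passed without SAS replicate 1 (log2 fold change 0.255, limma adjusted p = 0.046).

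Hydrolases of lipids and acyl groups were mostly higher: 4 of 5 rose, and their median log2 fold change was 0.41. Acid sphingomyelinase (Smpd1, NCBI Gene 20597), which releases ceramide from sphingomyelin, had 58.8, 62.2 and 73 FPKM in SAS libraries, against 38.1, 36.3 and 38.5 FPKM in vehicle libraries (log2 fold change 0.76 with SE 0.07, limma adjusted p = 3.73e-05). The lysosomal phospholipase Pla2g15 had 4.82, 5 and 6.16 FPKM in SAS libraries, against 3.27, 3.78 and 4.11 FPKM in vehicle libraries (log2 fold change 0.42 with SE 0.10, limma adjusted p = 0.00572). Acid lipase (Lipa), which hydrolyses cholesteryl esters and triglycerides, had 35.4, 39.6 and 42.8 FPKM in SAS libraries, against 29.6, 29.6 and 28.6 FPKM in vehicle libraries (log2 fold change 0.41 with SE 0.07, limma adjusted p = 0.00109). Acid ceramidase (Asah1), which cleaves ceramide to sphingosine, had 29.8, 27.1 and 32.9 FPKM in SAS libraries, against 21.8, 22.2 and 26 FPKM in vehicle libraries (log2 fold change 0.35 with SE 0.08, limma adjusted p = 0.0079). These 4 genes had no overlap between groups. Ppt1, which removes palmitate from proteins, had 19.2, 21 and 21.7 FPKM in SAS libraries, against 18, 19.1 and 18.5 FPKM in vehicle libraries. Its groups did not overlap either, but it missed the threshold (log2 fold change 0.15 with SE 0.06, limma adjusted p = 0.0947) and passed without SAS replicate 1 (0.196, adjusted p = 0.0342).

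None of the 3 soluble cofactors passed. Prosaposin (Psap), the precursor of the saposins that present sphingolipids to their hydrolases, had 343, 359 and 438 FPKM in SAS libraries, against 300.2, 322 and 348 FPKM in vehicle libraries (log2 fold change 0.23 with SE 0.09, limma adjusted p = 0.0661). The lowest SAS library lay within the vehicle range. Psap passed with array weights (0.316, limma adjusted p = 0.00858), without SAS replicate 1 (0.296, limma adjusted p = 0.0221) or Vehicle replicate 3 (0.28, adjusted p = 0.0467), and after scaling all libraries to 1 sum (adjusted p = 0.0445). Progranulin (Grn) averaged 138 ± 25.2 FPKM in SAS and 127 ± 6.57 FPKM in vehicle (SD, n = 3 each). The sterol-binding protein Npc2 averaged 93.5 ± 5.3 FPKM in SAS and 89.8 ± 7.26 FPKM in vehicle. Groups overlapped for Grn and for Npc2.

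Of the 6 membrane proteins, 4 rose and 2 did not pass. Npc1, the sterol exporter that receives cholesterol from Npc2, had 24.8, 28.6 and 30.0 FPKM in SAS libraries, against 17.2, 18.8 and 18.2 FPKM in vehicle libraries (log2 fold change 0.59 with SE 0.07, limma adjusted p = 0.00016). The cation channel Mcoln1, which releases calcium from the lysosome, had 16.4, 17.2 and 21.6 FPKM in SAS libraries, against 12.3, 11.8 and 13.7 FPKM in vehicle libraries (log2 fold change 0.51 with SE 0.10, limma adjusted p = 0.00205). Scarb2, a membrane protein that also serves as a sorting receptor, had 10.3, 10.02 and 11.3 FPKM in SAS libraries, against 7.66, 7.51 and 8.89 FPKM in vehicle libraries (log2 fold change 0.36 with SE 0.08, limma adjusted p = 0.00468). SAS and vehicle did not overlap for any of these 3. Lamp1 and Lamp2, the main structural glycoproteins of the membrane, did not pass. Lamp1, the most abundant membrane protein gene here, had 299.9, 338 and 362 FPKM in SAS libraries, against 306, 323 and 339.9 FPKM in vehicle libraries (limma adjusted p = 0.675), and the groups overlapped. Lamp2 averaged 26.9 ± 2.53 FPKM in SAS and 23.9 ± 2.26 FPKM in vehicle (SD, n = 3 each, log2 fold change 0.16) and passed without SAS replicate 2 (0.238, limma adjusted p = 0.049).

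Cd68, a sialomucin of the lysosomal membrane best known from macrophages, had 3.92, 3.99 and 3.99 FPKM in SAS libraries, against 2.22, 2.02 and 2.54 FPKM in vehicle libraries (log2 fold change 0.61 with SE 0.07, limma adjusted p = 0.000144). The groups did not overlap, although the level was low. Of 12 leukocyte markers, 6 were found among the deposited genes, and only 2, Fcer1g and Lyz2, reached the level required for testing. Ptprc, Adgre1, Itgam, Tyrobp, Mrc1 and Cd3e were not found. The summed level of the 6 was higher in SAS, at 3.05 to 3.61 FPKM, against 1.82 to 2.14 FPKM in vehicle. That sum came mostly from Fcer1g, with 2.64, 2.19 and 2.32 FPKM in SAS libraries, against 1.34, 1.69 and 1.55 FPKM in vehicle libraries, and Lyz2, with 0.94, 0.91 and 0.73 FPKM in SAS libraries, against 0.48, 0.45 and 0.48 FPKM in vehicle libraries. Both Fcer1g and Lyz2 rose (limma adjusted p = 0.00189 and 0.00249). Lyz2 averaged 0.47 FPKM in vehicle, so it reached the 0.5 FPKM required for testing only through its SAS libraries. Aif1 was listed at 0 in all 6 libraries, and Csf1r and Cd14 at no more than 0.05 FPKM in any. In bulk RNA, a change in the number of cells of a type and in RNA per cell cannot be told apart, and the part of leukocyte RNA in the result for Cd68 was not tested.

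Among the transcription factors, Tfe3 rose and Tfeb did not pass. Tfe3 (NCBI Gene 209446) had 35.6, 35.7 and 35.7 FPKM in SAS libraries, against 30.6, 30.8 and 28.3 FPKM in vehicle libraries (log2 fold change 0.25 with SE 0.06, limma adjusted p = 0.00542). The 3 SAS libraries were nearly equal and above all vehicle libraries. Tfeb had 15.4, 17.3 and 17.1 FPKM in SAS libraries, against 16.5, 15.1 and 14.9 FPKM in vehicle libraries (log2 fold change 0.10 with SE 0.07, limma adjusted p = 0.302), with overlapping groups. Mitf, their relative in the pigment cell lineage, had 18.1, 19.6 and 20.3 FPKM in SAS libraries, against 14.2, 17.8 and 15.6 FPKM in vehicle libraries (log2 fold change 0.28 with SE 0.08, limma adjusted p = 0.0214). Tfec, the fourth family member, was listed at 0 in all vehicle libraries and at 0.02 to 0.07 FPKM in SAS libraries. These are mRNA levels, and the activity of the proteins was not measured.

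MiT/TFE factors recognise E-boxes, so promoters were searched on both strands for the E-box core CACGTG, for the core with a T before it or, on the other strand, an A after it (the flanked core), and for the core with both, the palindrome TCACGTGA, from 250 bases before to 50 bases after each RefSeq start of GRCm38.p6. Each of these motifs contains the one before it. Promoter sequences were at hand for 37 of the 42 genes, all but Ctsb, Ctsh, Asah1, Npc1 and Galns, whose motifs are unknown. The flanked core was present in 10 of 37 (27.0%), against 7.47% of 8604 tested genes with a promoter and 4.29% of all 27025 genes. The core was present in 12 of 37 (32.4%), against 12.3% of tested genes, and the palindrome in 4 of 37 (10.8%), against 2.38%. Counted per promoter, 7.15%, 3.77% and 0.974% of all 32851 promoters held the core, the flanked core and the palindrome. Of the genes that rose, 8 of 20 with a promoter (40.0%) held the flanked core: Ctsd, Ctsa, Gaa, Gla, Naglu, Arsa, Sgsh and Mcoln1. Of those that did not rise, 2 of 17 (11.8%) did, Lamp1 and Glb1. Among all tested genes that rose, the share was 8.17% of 1641. Neu1 and Smpd1 held none of the 3 motifs in this window. A match is a string of letters, and no binding was measured.

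The palindrome was in 4 of the 37 genes with a promoter sequence, and these 4 all rose. Over all tested genes with a promoter it was no more frequent in those that rose, at 2.25% of 1641 against 2.38% of 8604. The promoters of the 4 are shown to let the motif be seen in place. The sequences are from RefSeq (GRCm38.p6), 5′ to 3′ on the strand of the gene, with each TCACGTGA in capitals. They lie at chr7:142387778-142388077, minus strand (Ctsd); at chr8:3500269-3500568, plus strand (Mcoln1); at chrX:134600956-134601255, minus strand (Gla); and at chr2:164833523-164833822, plus strand (Ctsa, which has a further annotated start without the motif).
Ctsd: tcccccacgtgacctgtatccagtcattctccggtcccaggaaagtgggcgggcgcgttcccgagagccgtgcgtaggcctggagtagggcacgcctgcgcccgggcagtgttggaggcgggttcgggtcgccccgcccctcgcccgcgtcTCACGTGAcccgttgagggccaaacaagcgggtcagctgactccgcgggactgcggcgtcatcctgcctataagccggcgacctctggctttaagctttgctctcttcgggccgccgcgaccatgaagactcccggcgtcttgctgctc
Mcoln1: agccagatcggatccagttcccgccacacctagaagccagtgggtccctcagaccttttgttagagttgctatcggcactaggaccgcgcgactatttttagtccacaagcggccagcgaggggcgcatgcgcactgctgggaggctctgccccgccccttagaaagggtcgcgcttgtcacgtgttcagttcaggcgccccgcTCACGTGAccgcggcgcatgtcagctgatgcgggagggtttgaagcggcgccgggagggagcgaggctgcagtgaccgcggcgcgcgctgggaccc
Gla: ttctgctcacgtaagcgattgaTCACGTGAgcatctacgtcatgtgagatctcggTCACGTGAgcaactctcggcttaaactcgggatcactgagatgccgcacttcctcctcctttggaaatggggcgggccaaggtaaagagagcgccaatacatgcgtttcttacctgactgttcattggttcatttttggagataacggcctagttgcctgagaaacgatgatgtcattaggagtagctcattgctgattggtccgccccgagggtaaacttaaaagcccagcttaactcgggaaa
Ctsa: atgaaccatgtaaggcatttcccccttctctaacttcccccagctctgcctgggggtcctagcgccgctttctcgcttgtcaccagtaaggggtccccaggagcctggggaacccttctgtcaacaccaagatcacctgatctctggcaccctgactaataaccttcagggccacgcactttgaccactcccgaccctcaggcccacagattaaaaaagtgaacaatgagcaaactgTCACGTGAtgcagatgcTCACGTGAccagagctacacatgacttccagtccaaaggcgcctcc

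Counted from the annotated start, where the first transcribed base is 1 and the base before it -1, the motif began at -99 in Ctsd and at -46 in Mcoln1. Gla held it at -228 and -195, and Ctsa at -13 and 5. Its place relative to the start differed among the 4 genes. Their log2 fold changes were 0.86 for Ctsd, 0.51 for Mcoln1, 0.50 for Gla and 0.28 for Ctsa, those of Mcoln1 and Gla lying within 1 SE of each other. Their levels differed too: Ctsd was the most abundant of the 42 genes, whereas Gla averaged 8.54 ± 0.37 FPKM in SAS and 5.76 ± 0.523 FPKM in vehicle (SD, n = 3 each).

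By substrate, the enzymes of heparan sulfate breakdown, most of which act one after another from the end of the chain, differed in direction. In a list of 9 such genes that also holds enzymes outside the 42, 7 rose and 1 fell. Of all genes tested, 18.9% rose and 18.5% fell, which also applies to the substrate lists below. The gene with the highest log2 fold change was Hpse, the endoglucuronidase that cuts within the chain, with 6.2, 7.01 and 7.79 FPKM in SAS libraries, against 3.21, 2.93 and 4.22 FPKM in vehicle libraries (log2 fold change 0.85 with SE 0.11, limma adjusted p = 0.000187). Naglu, Sgsh, Idua and the acetyltransferase Hgsnat, with 166, 187 and 206 FPKM in SAS libraries, against 139, 135 and 152 FPKM in vehicle libraries (limma adjusted p = 0.00296), rose too. Gusb, which removes glucuronic acid in the same pathway, fell, and Ids, which removes the sulfate of iduronic acid, did not pass (adjusted p = 0.607). Of 12 genes of sphingolipid breakdown, 7 rose, 0 fell and all 12 log2 fold changes were above 0. Neu1, Smpd1 and Arsa were among the genes that rose. In the list for glycoprotein glycans, 6 of 11 rose and 0 fell, with Neu1 and Man2b2 among those that rose. The 6 also include the carboxypeptidase Ctsa, and Engase, which was not listed here as a lysosomal hydrolase.

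Lysosomal genes outside the 42 were counted in lists, to be read beside the 18.9% of all genes tested that rose and the 18.5% that fell. Of 28 tested hydrolases and activators, 20 rose (71.4%) and 0 fell, with a median log2 fold change of 0.28. The hyaluronidase Hyal1 had 7.65, 9.89 and 9.9 FPKM in SAS libraries, against 3.79, 3.69 and 4.01 FPKM in vehicle libraries (log2 fold change 1.06 with SE 0.09, limma adjusted p = 1.55e-05), and Pld3, a nuclease, had 84.6, 80.8 and 100.3 FPKM in SAS libraries, against 54, 55.6 and 62.8 FPKM in vehicle libraries (log2 fold change 0.61 with SE 0.08, limma adjusted p = 0.000275). Of 29 membrane transporters and channels, 19 rose (65.5%) and 1 fell, with a median of 0.28. Slc66a1, which exports cationic amino acids, had 17.9, 16.5 and 21.8 FPKM in SAS libraries, against 11.6, 10.3 and 12.5 FPKM in vehicle libraries (log2 fold change 0.66 with SE 0.10, limma adjusted p = 0.000483). Abcd4, Mfsd12 and the chloride-proton exchanger Clcn7 also rose, by 0.63, 0.58 and 0.56. The cystine exporter Ctns had 17.6, 20.8 and 22.9 FPKM in SAS libraries, against 13.5, 14.9 and 16.3 FPKM in vehicle libraries (limma adjusted p = 0.00531). Of 20 genes of endosome and lysosome fusion, 11 rose (55.0%) and 0 fell. Rilp, counted among those that rose, averaged 0.397 FPKM in vehicle and reached the level required for testing only through its SAS libraries. The adaptors Plekhm1 and Plekhm2 led, with 25.6, 26.9 and 25.8 FPKM in SAS libraries, against 16.6, 17.5 and 15.8 FPKM in vehicle libraries, and 66.9, 69.2 and 65.4 FPKM in SAS libraries, against 44, 47.4 and 45.2 FPKM in vehicle libraries (limma adjusted p = 3.22e-05 and 3.54e-05), followed by the tethering subunits Vps39 and Vps18 (0.44 and 0.39).

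The share that rose was smaller in the lists of sorting, signalling and membrane glycoproteins. Of 19 genes of mannose 6-phosphate tagging and sorting, 6 rose (31.6%) and 1 fell, with a median log2 fold change of 0.05. Cln6, Scarb2 and Sort1 rose by 0.36, 0.36 and 0.33, and the adaptor Gga3 fell by 0.27 on the log2 scale. In the list of MiT/TFE factors with their mTORC1 and folliculin regulators, 6 of 27 rose (22.2%) and 2 fell, with a median of 0.04. Without Tfe3 and Tfeb, 5 of 25 rose (20.0%) and 2 fell (8.0%). The share that rose was thus near that of all genes tested. The Ragulator subunits Lamtor4 and Lamtor1 had 82, 71.5 and 74.5 FPKM in SAS libraries, against 58, 57.7 and 58.7 FPKM in vehicle libraries, and 302, 282 and 291 FPKM in SAS libraries, against 239, 233 and 242 FPKM in vehicle libraries (limma adjusted p = 0.000674 and 0.00131). The mTOR inhibitor Deptor rose (0.36) and the calcineurin subunit Ppp3ca fell (-0.28). Of 9 other membrane glycoproteins, 1 rose (11.1%), Glmp, at 0.26. Of 4 tested cathepsin inhibitors, 1 rose, cystatin 6 (Cst6), with 18.8, 17.1 and 17.1 FPKM in SAS libraries, against 12.2, 11.8 and 12.7 FPKM in vehicle libraries (limma adjusted p = 0.000202). Differences between these lists were not tested.

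**Figure D3:**
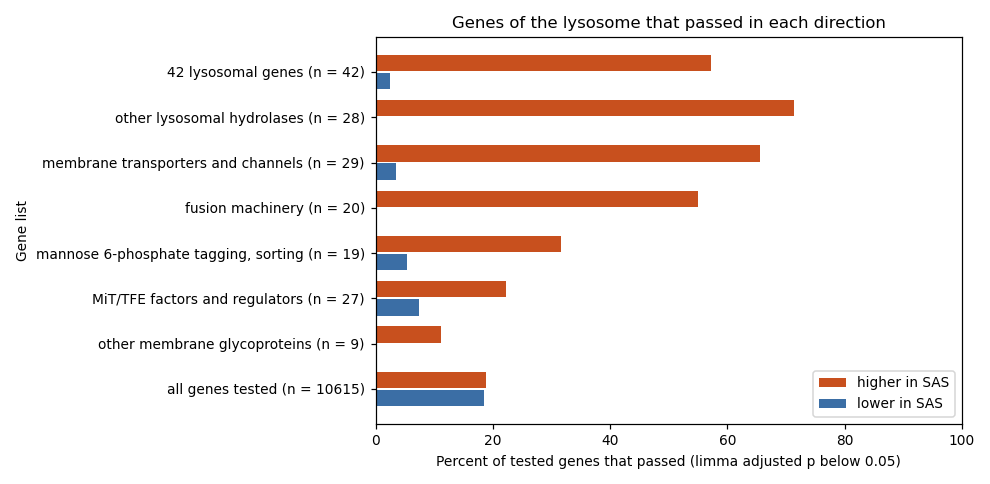
Percent of tested genes in each list that passed at a limma adjusted p below 0.05, higher in SAS (upper bar) or lower in SAS (lower bar), with the number tested. The 42 genes reach 57.1% higher and 2.38% lower, other hydrolases 71.4% and 0%, and all genes tested 18.9% and 18.5%. The first list shares Tfe3 and Tfeb with the regulators and Scarb2 with the sorting genes.

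The 42 genes also varied together between libraries of the same group. Their summed level was 4159, 4373 and 5046 FPKM in SAS replicates 1, 2 and 3, against 3261, 3300.1 and 3586 FPKM in Vehicle replicates 1, 2 and 3. As a share of all FPKM this was 0.754 ± 0.0867% in SAS and 0.56 ± 0.0206% in vehicle (SD, n = 3 each), and without Ctsd the sum was 1.17-fold that of vehicle. SAS replicate 3 held the highest SAS value of 35 of the 42 genes, as for 28.3% of all genes tested, and Vehicle replicate 3 the highest vehicle value of 29, as for 29.9% of all genes tested. The median deviation of the 42 genes from their group mean was 0.13 in SAS replicate 3 and -0.12 in SAS replicate 1 (log2), whereas for all genes tested it was -0.01 in both. The 42 genes are therefore not independent observations, and their counts move with single libraries: without SAS replicate 3, 20 of 42 rose, and without SAS replicate 1, 27 did. The median log2 fold change was 0.21 without SAS replicate 3 and 0.31 without SAS replicate 1.

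**Figure D4:**
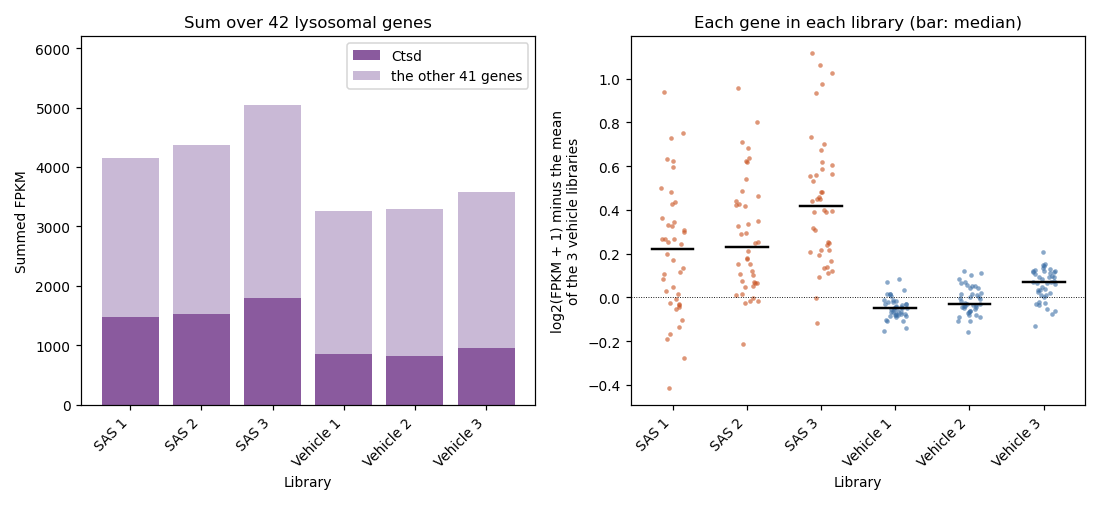
Left, summed FPKM of the 42 genes in each library, with the part of Ctsd in dark. Right, each gene's log2(FPKM + 1) minus its mean over the 3 vehicle libraries, with the median per library as a bar. The medians are 0.22, 0.23 and 0.42 in SAS replicates 1, 2 and 3, against -0.05, -0.03 and 0.07 in Vehicle replicates 1, 2 and 3.

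Genes that rose were found at low and at high levels. Of 10 genes with a mean under 10 FPKM, 8 rose, with a median log2 fold change of 0.39 over the 10. The 8 include Ctsf, which could be tested only through its SAS libraries. Of the 6 most abundant genes, Ctsd and Ctsb rose, while Ctsz, Hexa, Psap and Lamp1 did not pass. Some genes share their stretch of the genome with others in RefSeq, and whether fragments were assigned by strand is not given here. Galns overlaps Trappc2l, Ppt1 overlaps Cap1 and Asah1 overlaps Frg1, whose mean levels were 76.7, 78.5 and 30.4 FPKM. Idua overlaps Slc26a1 and Dgkq, at 0.795 and 0.945 FPKM. Ctsb overlaps Fdft1 (19.9 FPKM), Ctsa overlaps Pltp (12.2 FPKM) and Neurl2 (5.21 FPKM), and Npc1 overlaps Rmc1 (6.335 FPKM). Sgsh overlaps Card14 (5.035 FPKM) and Slc26a11 (4.13 FPKM). Ctsz overlaps Nelfcd (26.6 FPKM), Glb1 overlaps Tmppe (2.35 FPKM) and Hexa overlaps Tmem202 (0.97 FPKM).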

How the data were processed

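Total RNA of B16F10 cells was sequenced as 6 BGISEQ-500 libraries, 3 per group, per the labels' protocols. The authors' table, per the file headers, gives FPKM, with 2 decimals. The submitters' processing notes name FastQC, HISAT and Bowtie2, with no version or role. Quantifier, build and annotation: not given in the sources used here. FPKM is a share, so abundant genes that rise lower the rest. The lowest value above 0 was 0.01, in every library, so reads could not be recovered and no count test was run. No label states that replicates were separate cultures, so the p-values cover the spread of these libraries alone, which may be technical. SAS columns were matched by their 24 h header and replicate number, vehicle columns by elimination. At most 3.45% of genes had identical values above 0 in a library pair.

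Symbols came from RefSeq by NCBI Gene identifier (99.3% matched). limma 3.58.1 (R 4.3.3), with an intensity trend, was fitted to log2(FPKM + 1) of the 10615 genes averaging 0.5 FPKM or more over the 6 libraries, two-sided, Benjamini-Hochberg adjusted over all of them, threshold 0.05. The fit was tried on simulated data with independent noise for each gene, which does not cover genes that vary together between libraries. Alternatives: pseudocounts (0.1, 0.5), filters (none, 5 FPKM), scaling (size factors, 1 common sum, quantiles), the replicate number as a block, variance models (no trend, robust, array weights) and leaving out each library. The 42 genes, the lists and the tests were chosen with earlier results of these data known, and lists have counts and medians only. Values per library are given for genes that fell, the up to 4 largest changes per role, the most abundant gene of each role, both transcription factors and genes that did not pass but did not overlap, and, in other lists, for some of the up to 4 largest changes; Ctns, Mitf, Tfec, Hgsnat and the leukocyte genes were added after their values were seen. Tables were made with pandas 2.3.3 and numpy 2.4.6 in Python 3.11.15, plots with matplotlib 3.10.9.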

Additional observations from a re-analysis of the deposited data

How the results depend on the processing

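Of the 24 genes that rose, 20 rose under every one of the 17 alternatives in which they were tested, and the exceptions were Ctsa, Ctsb, Ctsc and Ctsf. The number that rose was 20 with no filter on low values, 20 of 37 at a minimum of 5 FPKM, 24 under each other scaling, pseudocount or variance model except array weights (30), and 20 to 27 with 1 library left out. Array weights, which give more weight to libraries that vary less, added Ctsl (log2 fold change 0.199, limma adjusted p = 0.0248), Man2b1, Galns, Ppt1, Psap and Lamp2 and lost none. The number that fell was 0 with no filter on low values and 0 to 1 with 1 library left out, and the cause was not tested. With no filter, Ctsa, Ctsb, Ctsc, Ctsf and Gusb missed the threshold, over 15938 genes tested in place of 10615. Ctsc also missed it with a common sum (limma adjusted p = 0.0521). Genes that did not pass and whose direction turned were Manba (log2 fold change 0.027), Ids (0.00248) and Arsb (0.0063) with array weights. With 1 library left out, the values ranged from -0.0968 to 0.0331 for Manba, from -0.102 to 0.00748 for Ids, from -0.148 to 0.052 for Arsb, from -0.0698 to 0.119 for Glb1, from -0.035 to 0.189 for Grn and from -0.0196 to 0.116 for Lamp1. Over all genes, 1510 to 1935 rose and 1332 to 1897 fell with 1 library left out. With the replicate block, 25 of the 42 rose, Psap being added (limma adjusted p = 0.0147), and 1 fell. Same-numbered libraries deviated from their group means with correlations of -0.08, 0.145 and 0.234 across genes, so the numbers were not taken to pair the libraries, and not every library correlated best with its own number. Genes near the threshold are limited by 3 libraries per group, and fragment depth is unknown.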

Other observations

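Ratios between genes whose products work together or are related were set side by side for 6 pairs, chosen after the values of the single genes were seen, so whether their groups overlap is a description and no ratio was tested. Sialidase Neu1 and β-galactosidase Glb1 are both held in a complex by Ctsa. The ratio of Neu1 to Ctsa FPKM was 0.328, 0.33 and 0.299 in SAS libraries, against 0.184, 0.193 and 0.187 in vehicle libraries. The ratio of Glb1 to Ctsa was 0.29, 0.317 and 0.305 in SAS libraries, against 0.363, 0.364 and 0.354 in vehicle libraries. For the sterol-handling pair, the ratio of Npc2 to Npc1 was 3.52, 3.36 and 3.23 in SAS libraries, against 5.02, 4.51 and 5.38 in vehicle libraries. The ratio of Tfe3 to Tfeb was 2.31, 2.06 and 2.09 in SAS libraries, against 1.86, 2.04 and 1.9 in vehicle libraries. These 4 ratios did not overlap between groups, though that of Tfe3 to Tfeb was separated only by 2.06 in SAS against 2.04 in vehicle. How often ratios of other gene pairs are separated was not counted. The ratio of Grn to Psap was 0.358, 0.349 and 0.382 in SAS libraries, against 0.4, 0.398 and 0.382 in vehicle libraries, so that the groups met at 0.382. The ratio of Lamp1 to Lamp2 overlapped, at 10.4 to 14.1 in SAS libraries and 12.8 to 14.3 in vehicle libraries.

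Some lysosomal proteases typical of other cell types were near 0. Cathepsin S (Ctss), typical of antigen-presenting cells, was listed at 0 in all 6 libraries. Cathepsin K (Ctsk), typical of osteoclasts, had 0.37, 0.47 and 0.45 FPKM in SAS libraries, against 0.32, 0.3 and 0.3 FPKM in vehicle libraries.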
